A study of Mus musculus with 16 samples.

Results

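The genes described here are 9 that make up or surround the antigen receptor of T cells: Cd3e, Cd247 and Zap70 of the receptor and its first signalling step, the coreceptors Cd4, Cd8a and Cd8b1, and the surface markers Cd2, Cd6 and Thy1. All probe sets that the platform annotation maps to 1 of these symbols alone were taken, 13 of the 12422 probe sets tested, which together name 8251 genes. Cd4, Cd8a and Cd8b1 encode proteins of the sort gates and are read as checks on the labels. Cd3e encodes a chain of CD3, which was also a gate of the spleen T cells. The genes were chosen for their known roles and not by a threshold, but with earlier results of these data known.

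Each of 16 arrays measured RNA of 1 sorted mouse lymphocyte sample, in 6 groups that form 3 pairs. NKT cells were CD3+CD4+NK1.1+ cells of the spleen (n = 3), and CD4T cells were CD3+CD4+NK1.1- cells of the spleen (n = 3). CD8aaT cells were TCRb+CD8a+CD8b- cells from RTOC given 10 mM of the agonist Smcy (n = 3), and CD8abT cells were TCRb+CD8a+CD8b+ cells from RTOC given 100 nM (n = 3). The labels use RTOC without spelling it out, give no strain or genotype for these cells, and write the doses in these units, so the gap between the doses is uncertain and dose cannot be told apart from cell type. B1 cells were IgM(hi)IgD(int)CD11b+ cells of the peritoneal cavity (n = 2), and B2 cells were IgM(int)IgD(hi)CD11b- cells of the spleen (n = 2), so tissue and B cell type cannot be told apart either. Mice that gave the spleen and peritoneal cells were wild type C57BL/6, and their ages are not stated. About 100000 cells were sorted for each spleen or peritoneal sample and about 50000 for each RTOC sample.

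T cells read antigen through a receptor whose variable chains carry no signalling tail of their own and lean on the CD3 chains and on the zeta chain. Once the kinase Lck has phosphorylated tyrosine motifs in those tails, ZAP-70 docks on them and passes the signal on. CD4 and CD8 bind the MHC molecule beside the receptor and bring Lck along. CD8 is a dimer, of an alpha and a beta chain on conventional cytotoxic T cells and of 2 alpha chains on several unconventional T cells of the gut. CD2, CD6 and Thy-1 are surface proteins of T cells, of which CD2 binds CD48 and CD6 binds CD166 on neighbouring cells, while in the mouse CD2 is also found on B cells.

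RefSeq promoter sequences, each from 250 bases before to 50 after an annotated start in GRCm38.p6, held 6 entries for 4 of the 9 genes. The Cd247 entry sits at a start inside the gene, downstream of the first base RefSeq gives for it, while the Zap70 and Cd8a entries printed here sit at the gene's first base. Those of Zap70 and Cd247 are shown because these partners in 1 signalling step lay on opposite sides of 0 in NKT cells, and that of Cd8a because it passed the test in CD8aaT cells. Capitals mark 6-base matches, on either strand, to AGGAAG (an ETS-type core) or CAGGTG (an E-box), and TGTGGT (a RUNX-type core) was searched as well. The matches shown do not overlap.
Zap70, the most upstream of 3 starts, chr1:36761548-36761847, plus strand: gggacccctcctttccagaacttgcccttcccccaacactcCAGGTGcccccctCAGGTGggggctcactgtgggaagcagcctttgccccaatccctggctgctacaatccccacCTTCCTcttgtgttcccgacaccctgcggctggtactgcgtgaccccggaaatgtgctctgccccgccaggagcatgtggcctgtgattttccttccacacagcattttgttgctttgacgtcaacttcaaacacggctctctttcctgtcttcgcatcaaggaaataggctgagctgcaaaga
Cd247, chr1:165788431-165788730, plus strand: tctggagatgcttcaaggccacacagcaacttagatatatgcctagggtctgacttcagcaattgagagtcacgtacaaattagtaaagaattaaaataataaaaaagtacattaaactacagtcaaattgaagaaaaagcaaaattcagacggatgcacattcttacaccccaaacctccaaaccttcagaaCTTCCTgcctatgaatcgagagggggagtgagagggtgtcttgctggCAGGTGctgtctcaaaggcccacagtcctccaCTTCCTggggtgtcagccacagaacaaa
Cd8a, chr6:71373177-71373476, plus strand: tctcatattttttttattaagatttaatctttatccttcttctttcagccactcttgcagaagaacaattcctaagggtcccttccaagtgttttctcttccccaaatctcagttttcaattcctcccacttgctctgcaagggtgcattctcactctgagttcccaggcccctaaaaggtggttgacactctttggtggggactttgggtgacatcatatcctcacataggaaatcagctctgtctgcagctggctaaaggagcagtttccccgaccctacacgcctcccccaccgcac
The window of Zap70 held 1 match to AGGAAG and 2 to CAGGTG, that of Cd247 2 and 1, and none of the 3 motifs matched in the window of Cd8a. Among all 32851 promoter windows 35.4% held AGGAAG, 20.2% CAGGTG and 16.8% TGTGGT. These matches are letters in a window and no measure of binding.

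Values are the deposited RMA intensities, on a linear scale, and differences are on log2 of them, innate-like minus adaptive group, with the SE of the fit. Tests are limma's, with p-values adjusted by Benjamini-Hochberg over 12422 probe sets and called under 0.05. Array medians lay between 49.6 and 54.1 in NKT and CD4T, between 30.4 and 31.8 in the RTOC groups and between 69.3 and 76.2 in the B cell groups. Levels are therefore compared within a pair, or, across pairs, after each array's median log2 value is subtracted. The number of arrays limits the precision. In sorted bulk RNA, fewer cells that express a gene and less of its RNA per cell cannot be told apart. The number 1 arrays of NKT and CD4T stood apart in the 18S RNA control, at 675 and 1326 against 52.7 to 59.2 on the other 4. The same held for B1, at 776 against 33.4, and for B2, at 877 against 62.6. In the RTOC groups this control read 66.5, 273 and 249 in CD8aaT cells, against 129, 857 and 716 in CD8abT cells, with number 1 lowest in both. The ratio of beta-actin control probe sets at the 3' end to those at the 5' end was also raised on number 1 arrays of the spleen T cells. It was 5.34 in NKT and 7.02 in CD4T cells, against 3.56 to 3.72 on the other 4. The part of the 18S control in the results was not tested, and counts are also given without the number 1 arrays of all groups. The plot of intensities by array shows all 9 genes.

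**Figure D1:**
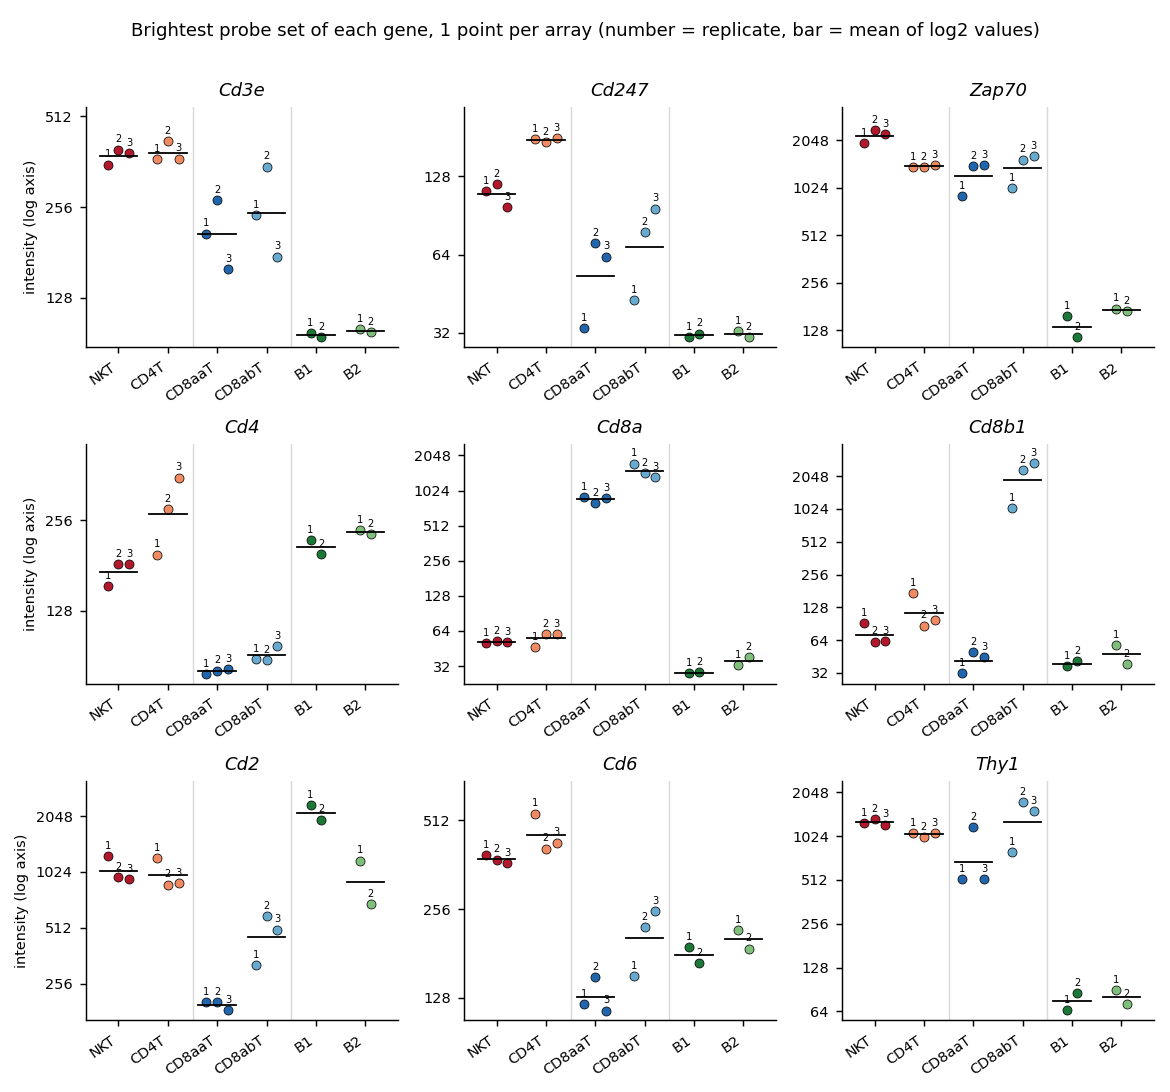
Deposited intensity (vertical log axis) of the brightest probe set of each of the 9 genes on the 16 arrays, by group. Points are arrays numbered by replicate and bars are means of log2 values. Cd8b1 lies between 1043 and 2704 in CD8abT cells and below 50 in CD8aaT cells, and Cd2 is highest in B1 cells.

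The sort gates were visible in the genes of the CD8 chains. Cd8b1, the beta chain, had intensities of 31.7, 49.3 and 44.5 in CD8aaT cells, against 1043, 2324 and 2704 in CD8abT cells. All CD8aaT arrays lay far below all CD8abT arrays, 45.5-fold on average (-5.51 ± 0.34, adjusted p = 3.6e-06). The CD8aaT reading was near the array median and not shown to be above background, so this average may be understated. The p-value of Cd8b1 ranked 1st of all probe sets in this pair. On the scale of array medians Cd8b1 stood at 0.41 ± 0.32 (SD, n = 3) in CD8aaT cells, close to 0.47 ± 0.27 in NKT cells and above -0.90 ± 0.20 and -0.67 ± 0.38 (SD, n = 2) in B1 and B2 cells. On this scale the CD8aaT and NKT arrays overlapped, and the arrays of all 4 T cell groups were above those of the B cells. The place of CD8aaT cells above B cells depends on this scaling. Deposited intensities in B1 (36.8 and 41.1) and B2 cells (57.7 and 38.6) overlapped those of CD8aaT cells.

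Cd8a, the alpha chain that both RTOC gates require, had intensities of 896, 805 and 878 in CD8aaT cells, against 1741, 1445 and 1341 in CD8abT cells. The groups did not overlap, and the difference was -0.80 ± 0.14 (1.75-fold lower, adjusted p = 0.03). That call was lost without any 1 of 8 of the 16 arrays, with the adjusted p reaching 0.15 without CD8aaT replicate 2, and in a fit on these 2 groups alone (adjusted p = 0.37). In the spleen, whose cells were not gated on CD8, Cd8a read 50.6, 52.3 and 51.3 in NKT cells, against 46.7, 60.3 and 60.0 in CD4T cells, near the median of these arrays.

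Cd8a read lower still in B cells, at 27.8 and 28.5 in B1 and 32.7 and 38.2 in B2. The order of Cd8a on the array-median scale was CD8abT (5.59), CD8aaT (4.79), CD4T (0.10), NKT (0.01), B2 (-1.09) and B1 (-1.36). CD4T and NKT were the only neighbours in it whose arrays overlapped.

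Cd4 had intensities of 155, 182 and 183 in NKT cells, against 197, 278 and 355 in CD4T cells, both sorted as CD4+. The groups did not overlap, and the difference of -0.64 ± 0.17 (1.56-fold lower) did not pass the test (adjusted p = 0.11), while it did with the replicate number as a block (adjusted p = 0.0095). The same probe set read 219 and 198 in B1 cells and 237 and 230 in B2 cells, which are not sorted for CD4. On the array-median scale CD4T cells were highest (2.38 ± 0.49, SD, n = 3), with arrays that overlapped those of NKT cells on this scale (1.76), then B2 (1.64), CD8abT (1.55), B1 (1.52) and CD8aaT cells (1.38). B2 and NKT arrays overlapped.

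Which probe sets tell T from B cells was asked with the mean of the 4 T cell groups minus that of the 2 B cell groups on the array-median scale. Of the 13 probe sets 9 were higher in T cells, where 16% of all probe sets were, and 1 was lower, where 11.8% were, so 10 passed in all against 27.8% of all probe sets. The spleen T cells were gated on CD3, the RTOC cells on TCRb and CD8a, and CD8abT cells on CD8b. The direction of Cd3e, Cd8a and Cd8b1, which are among the 9, thus follows from the sort. Cd8a stood at 5.59 in CD8abT and 4.79 in CD8aaT cells, but at 0.10 in CD4T and 0.01 in NKT cells. Thy1 stood 4.63 ± 0.23 higher in T cells and the probe set 92203_s_at of Cd6 4.49 ± 0.27, and the brightest probe set of Zap70, 93662_s_at, 4.18 ± 0.14. The B cell readings of Thy1 (65.4 to 90.1) lay about the array median. Those of Cd6 92203_s_at (19.4 to 23.2), Zap70 93661_at (20.3 to 25.4), Cd8a (27.8 to 38.2), Cd247 102287_at (30.8 to 32.4) and Cd8b1 (36.8 to 57.7) lay below it. The differences at all these probe sets may therefore be understated, and their order between probe sets is not an order of expression. Cd8a differed by 3.85 ± 0.11, Zap70 93661_at by 3.79 ± 0.28, Cd8b1 by 2.76 ± 0.23, Cd3e by 2.48 ± 0.17 and Cd247 102287_at by 2.42 ± 0.20. The probe set 92204_at of Cd6 differed by 1.33 ± 0.12. These 9 kept their direction on the deposited scale, where the median of all probe sets lay at -0.84 against 0.04 on the array-median scale.

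Of the 13, 3 probe sets did not pass as T cell probe sets: Cd4 103480_at (0.18 ± 0.13, adjusted p = 0.34), Zap70 93663_r_at (0.03 ± 0.09, adjusted p = 0.85) and Cd247 102288_at (-0.25 ± 0.09, adjusted p = 0.062). On the deposited scale the 1st and 2nd of them turned round, to -0.70 and -0.85. Within groups, the deviations of the 12 T cell arrays from their means correlated at 0.88 between Zap70 93661_at and 93662_s_at and at 0.88 between the Cd6 probe sets. The value was -0.40 between those of Cd247, as a description of arrays that share their RNA. Zap70 93661_at and 93662_s_at, and Cd247 102287_at, are therefore described below, with the other probe sets beside them.

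**Figure D2:**
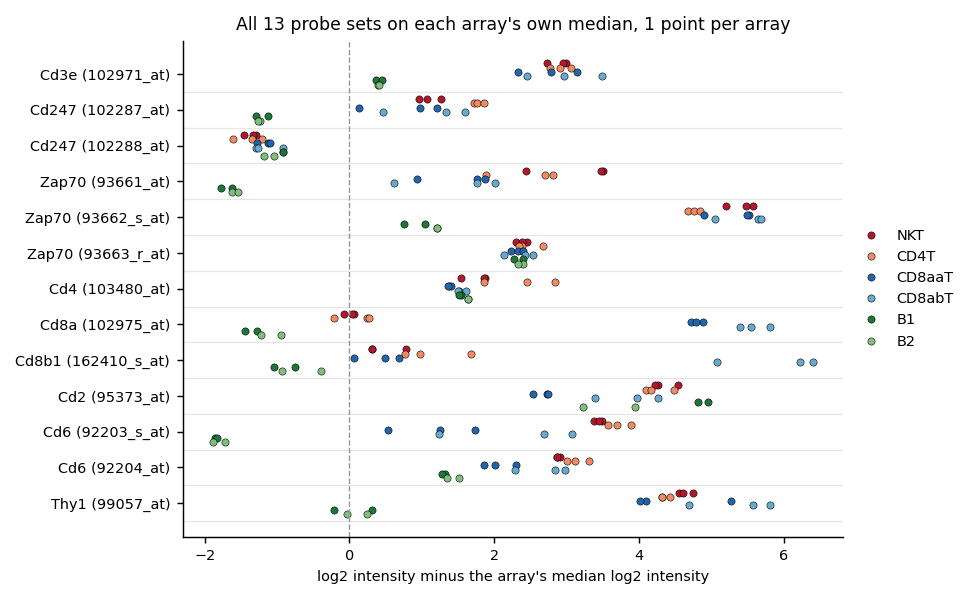
Log2 intensity minus the array's median log2 intensity (horizontal axis) of all 13 probe sets, 1 point per array, coloured by group. T and B cell arrays are apart at 9 probe sets, and mixed at Cd4, Zap70 93663_r_at, Cd247 102288_at and Cd2.

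In NKT cells the receptor chain Cd3e was close to its level in CD4T cells, and both groups were gated on CD3. Its partners in signalling lay to either side. No probe set of the 9 genes passed the test in this pair (0 of 13, against 1.63% of all probe sets), and 3 of 13 had an unadjusted limma p under 0.05, as did 772 of all 12422. With the replicate number as a block 4 of 13 passed, 2 higher and 2 lower, where 4.84% of all did, and without the number 1 arrays 3 passed, where 2.87% of all did (both T cell probe sets of Zap70, at 0.73 and 0.71, and Cd4 at -0.78). The groups did not overlap at 6 of 13 probe sets, where 12.2% of all had no overlap. The median difference of the 9 brightest probe sets was -0.10, against -0.03 over all probe sets.

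Cd3e, whose product is 1 of the signalling chains that pair within the receptor, had intensities of 354, 397 and 388 in NKT cells, against 368, 425 and 371 in CD4T cells. The arrays overlapped, and the difference was -0.03 ± 0.22 with a 95% interval of -0.50 to 0.44. Cd3d and Cd3g, the other CD3 chains, differed by 0.31 ± 0.28 and 0.07 ± 0.43, and neither passed.

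Cd247, the zeta chain that carries most of the receptor's tyrosine motifs, had intensities of 112, 120 and 97.7 in NKT cells, against 178, 173 and 180 in CD4T cells. All NKT arrays were below all CD4T arrays (-0.69 ± 0.28, 1.62-fold lower, adjusted p = 0.57, and 0.0046 with the block). The other probe set read between 16.3 and 22.1 on these 6 arrays and gave 0.02 ± 0.15.

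Zap70, the kinase that docks on the zeta chain, had intensities of 1970, 2380 and 2242 in NKT cells, against 1389, 1388 and 1426 in CD4T cells at its brightest probe set. All NKT arrays were above all CD4T arrays (0.64 ± 0.20, 1.56-fold higher, adjusted p = 0.24, and 0.0041 with the block). The second probe set that separates T from B cells gave 0.66 ± 0.38 (adjusted p = 1.00, and 0.0094 with the block), with 290, 567 and 557 in NKT cells against 201, 331 and 349 in CD4T cells, and these arrays overlapped. Zap70 93663_r_at gave -0.09 ± 0.15.

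None of the adhesion markers passed the test between NKT and CD4T cells. The 95% intervals of Thy1 (-0.39 to 0.94) and Cd6 (-0.66 to 0.11 and, at 92203_s_at, -1.11 to 0.53) leave room for larger differences. Cd2 had intensities of 1242, 965 and 938 in NKT cells, against 1211, 876 and 893 in CD4T cells (0.08 ± 0.24, 95% interval -0.43 to 0.59). Thy1 had 1259, 1346 and 1229 in NKT cells, against 1078, 1013 and 1069 in CD4T cells, without overlap and without passing (0.28 ± 0.31). Cd6 had 389, 376 and 366 in NKT cells, against 539, 410 and 430 in CD4T cells, again without overlap and without passing (-0.27 ± 0.18 and, at 92203_s_at, -0.29 ± 0.38). None of the 3 passed with the block either. NK cell markers moved with the NKT group, which is gated on NK1.1, with 4 of 5 higher and a summed intensity of 941 to 1510 in NKT cells against 198 to 275 in CD4T cells. Of 8 macrophage markers 2 were called higher, Lyz2 at 2.08 ± 0.35 and Csf1r at 0.60 ± 0.13, while 5 lay above 0 and 3 below. The macrophage markers summed to 509 to 635 in NKT cells against 367 to 529 in CD4T cells, and these ranges overlapped. B cell markers summed to 811 to 1699 in NKT cells and 727 to 1375 in CD4T cells, and none of 6 was called. Their part in the values of the 9 genes was not tested.

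**Figure D3:**
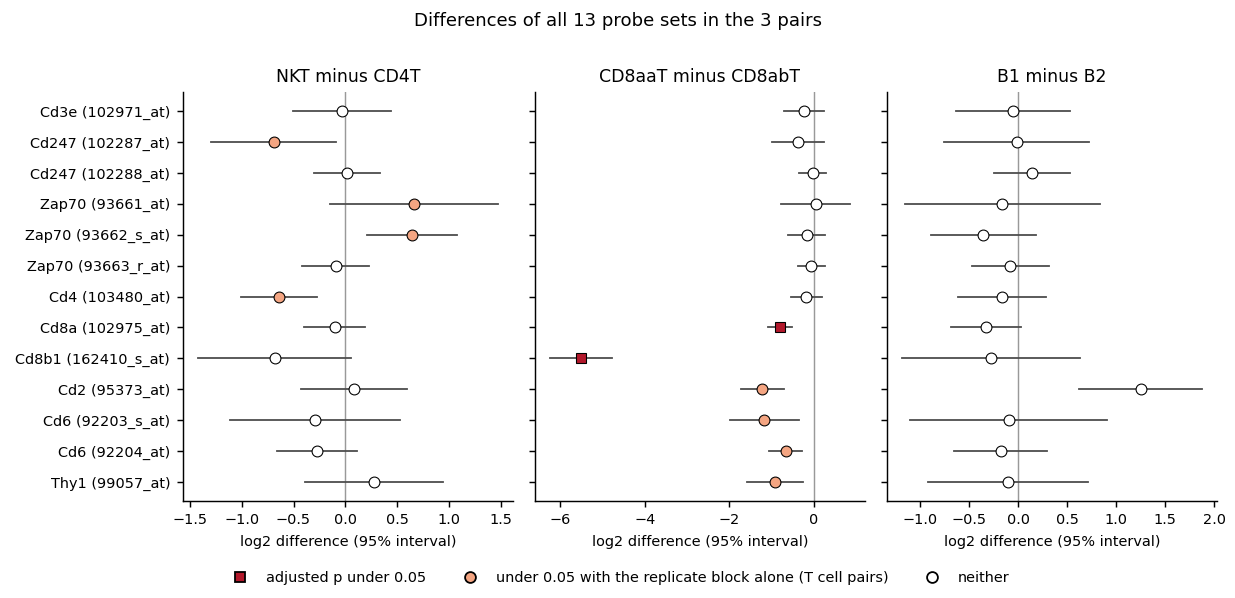
Log2 difference (horizontal axes, 95% interval of the fit) of all 13 probe sets in NKT minus CD4T, CD8aaT minus CD8abT and B1 minus B2. Cd8b1 (-5.51) and Cd8a (-0.80) passed the test in CD8aaT cells, and filled circles mark probe sets that passed in the T cell pairs with the replicate block alone.

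In CD8aaT cells all 9 genes lay below CD8abT cells at their brightest probe set, with Cd8b1, Cd8a and the adhesion markers furthest from 0. Of the 13 probe sets 12 lay below 0, where 60.8% of all probe sets did. The gate on CD8b fixed the direction of Cd8b1, while both gates required CD8a. Of 13 probe sets 2 passed, the gate genes Cd8a and Cd8b1, both lower, where 0.0322% of all probe sets were called lower and 0.185% in either direction. With the replicate block 6 of 13 were called lower, against 0.588% of all called lower and 3.2% in either direction, adding Cd2, both probe sets of Cd6 and Thy1. Without the number 1 arrays 5 passed, where 1.53% of all did: Cd8a (-0.73), Cd8b1 (-5.74), Cd2 (-1.49) and Cd6 (-1.40 and -0.84). The median difference of the 9 brightest probe sets, gate genes included, was -0.66, against -0.05 over all. At 5 of 13 the groups did not overlap, where 11.3% of all had no overlap.

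Cd2, the adhesion receptor for CD48, had intensities of 203, 204 and 184 in CD8aaT cells, against 323, 594 and 501 in CD8abT cells. All CD8aaT arrays were below all CD8abT arrays, 2.33-fold on average (-1.22 ± 0.24, 95% interval -1.73 to -0.71). The adjusted p was 0.064, and 0.0045 with the block. Over the 16 fits without 1 array the difference ran between -1.47 (without CD8abT replicate 1, the lowest of its group) and -1.03 (without CD8abT replicate 2), with adjusted p-values of 0.015 to 0.26 and 4 calls.

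Cd6, a receptor for CD166 and a relative of the inhibitory receptor CD5, had intensities of 122, 150.6 and 116 in CD8aaT cells, against 151.3, 222 and 251 in CD8abT cells at its brighter probe set. The groups came within 1 unit of each other without overlapping (-0.66 ± 0.18, adjusted p = 0.32, and 0.037 with the block). The probe set that separates T from B cells most had 44.1, 101 and 75.9 in CD8aaT cells, against 72.4, 200 and 268 in CD8abT cells. It gave a larger difference with overlapping arrays (-1.17 ± 0.38, adjusted p = 0.55, and 0.0092 with the block). Without CD8abT replicate 1, the lowest of its group, the differences were -0.88 and -1.73 and both passed, the only such fit of 16. The others reached -0.51 and -0.79 (without CD8abT replicate 3), and adjusted p-values ran up to 0.76 and 0.80.

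Thy1, the GPI-anchored glycoprotein used as a pan-T cell marker in the mouse, had intensities of 522, 1179 and 516 in CD8aaT cells, against 797, 1746 and 1526 in CD8abT cells. The arrays overlapped because CD8aaT replicate 2 exceeded CD8abT replicate 1, while each CD8aaT array was below the CD8abT array of its number. The difference was -0.91 ± 0.31 (1.88-fold lower, adjusted p = 0.58, and 0.034 with the block).

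The receptor and signalling genes were nearer to 0 in this pair, and single arrays moved them. Cd3e had 209, 270 and 159 in CD8aaT cells, against 241, 349 and 175 in CD8abT cells (-0.24 ± 0.22), and each CD8aaT array was below its numbered partner. Cd247 had 33.4, 70.7 and 62.8 in CD8aaT cells, against 42.7, 78.2 and 96.2 in CD8abT cells (-0.37 ± 0.28). Zap70 had 909, 1402 and 1432 in CD8aaT cells, against 1023, 1547 and 1638 in CD8abT cells (-0.17 ± 0.20, with 0.04 ± 0.38 at 93661_at). None of these passed with or without the block. Over the fits without 1 array Cd3e ran between -0.48 (without CD8abT replicate 3) and 0.02 (without CD8abT replicate 2). Cd247 ran between -0.71 (without CD8abT replicate 1) and -0.04 (without CD8aaT replicate 1), and Zap70 93662_s_at between -0.38 and 0.04 without the same arrays. The sign of Cd3e and Zap70 thus depended on 1 array each. Replicate 1 was the lowest of its group for 6 of the 9 genes in CD8abT cells and for 4 in CD8aaT cells.

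A sign of RNA or target length and a list of thymocyte genes moved with the same groups. Beta-actin control probe sets at the 3' end read above those at the 5' end by a factor of 5.80, 5.76 and 5.15 in CD8aaT cells, against 6.57, 11.6 and 7.92 in CD8abT cells. With this factor as a covariate, added after seeing the values, Cd8b1 was -4.88 and Cd8a -0.99, both called, while Cd2 was -0.77 ± 0.19 (adjusted p = 0.42), Thy1 -0.63 ± 0.36 and Cd6 -0.42 ± 0.19. The Gapdh control gave factors of 20.9, 17.6 and 7.37 in CD8aaT cells, against 24.0, 30.4 and 9.47 in CD8abT cells, and these overlapped. Of 7 double-positive thymocyte markers all were below 0 in CD8aaT cells and none passed (3 with an unadjusted limma p under 0.05), with a summed intensity of 256 to 274 in CD8aaT cells against 305 to 527 in CD8abT cells. Stroma markers summed to 333 to 535 in CD8aaT cells and 393 to 519 in CD8abT cells, and B cell markers to 319 to 911 and 312 to 381, with Blk at 2.28 ± 0.83 and none called. NK cell markers summed to 656 to 991 in CD8aaT cells against 135 to 347 in CD8abT cells, with 1 of 5 called, Klrd1 (2.20 ± 0.37, adjusted p = 0.031). The part of these markers in the differences was not tested.

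The difference between the T cell pairs was tested directly, as NKT minus CD4T less CD8aaT minus CD8abT. Of 13 probe sets 1 passed, where 0.692% of all did: Cd8b1 (4.82 ± 0.49, adjusted p = 1.6e-04), the gene that 1 of these gates selects against. With the block 5 passed, against 3.02% of all, adding Cd2 (1.30 ± 0.23, adjusted p = 0.012), Thy1 (1.19 ± 0.27, adjusted p = 0.040), Zap70 93662_s_at (0.81 ± 0.15, adjusted p = 0.015) and Cd8a (0.70 ± 0.16, adjusted p = 0.039). Without the block these 4 had adjusted p-values of 0.15, 0.66, 0.58 and 0.21. Cd6 at its brighter probe set was 0.39 ± 0.26 and Cd247 -0.32 ± 0.40, passing in neither fit. Without the number 1 arrays, where 2.92% of all passed, Cd8b1 (5.18), Cd2 (adjusted p = 0.0065) and Zap70 93662_s_at (0.88) did.

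Cd2 was the only one of the 9 genes with an unadjusted p under 0.05 between B1 and B2 cells. Cd2 had intensities of 2340 and 1962 in B1 cells, against 1178 and 690 in B2 cells. Both B1 arrays were above both B2 arrays, 2.38-fold on average (1.25 ± 0.29, 95% interval 0.62 to 1.87), and the adjusted p was 0.064. After centring on array medians it was 1.30 with an adjusted p of 0.034, and without B2 replicate 1 it was 1.64 with an adjusted p of 0.036. Without B2 replicate 2, the lower array of its group, it was 0.86 with an adjusted p of 0.85. No probe set passed in this pair (0 of 13, against 1.14% of all probe sets), and 1 of 13, that of Cd2, had an unadjusted limma p under 0.05, as did 594 of 12422. The groups did not overlap at 6 of 13 probe sets, where 32.3% of all had no overlap.

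On the array-median scale Cd2 was ordered B1 (4.89), NKT (4.34), CD4T (4.25), CD8abT (3.88), B2 (3.59) and CD8aaT (2.67). NKT overlapped with CD4T, CD4T with CD8abT and CD8abT with B2, while B1 at the top and CD8aaT at the bottom were apart from their neighbours. T cells as a whole lay 0.45 ± 0.16 below B cells (adjusted p = 0.046), a call kept in 5 of 16 fits without 1 array and lost without the number 1 arrays. The 5 other T cell markers measured (Cd3d, Cd3g, Lat, Cd28 and Cd5) summed to 249 to 288 in B1 cells and 260 to 281 in B2 cells, and all 5 were higher in T cells on the array-median scale. Lyz2, a myeloid marker, was 2.29 ± 0.43 higher in B1 cells (adjusted p = 0.013). It was the only 1 of 8 macrophage markers called, of which 3 lay above 0 and 5 below. Its part in the Cd2 value was not tested.

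The remaining genes gave B1 values beside B2 values that differed by at most 0.36 on the log2 scale, at Zap70 (-0.36 ± 0.25). Cd3e had 97.3 and 94.4 in B1 cells, against 101 and 98.0 in B2 cells, and Thy1 had 65.4 and 85.7 in B1 cells, against 90.1 and 72.0 in B2 cells. Zap70 was 157 and 116 in B1 cells, against 176 and 170 in B2 cells, and lay 0.90 and 1.21 above the array medians. The B cell arrays thus give the reading of these probe sets in cells not sorted for the T cell receptor.

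Orders on the array-median scale differed between genes. Thy1 ran CD8abT (5.36), NKT (4.64), CD8aaT (4.46), CD4T (4.35), B2 (0.10) and B1 (0.05), and only the step from CD4T to B2 was without overlap. Zap70 ran CD8abT (5.46), NKT (5.42), CD8aaT (5.30), CD4T (4.77), B2 (1.21) and B1 (0.90), where the first 3 overlapped and CD4T stood below them. Cd247 was highest in CD4T cells (1.78), apart from CD8abT (1.13), NKT and CD8aaT cells (0.77), which overlapped with each other, and the B cells were at -1.21 (B1) and -1.24 (B2). Cd3e ran from 2.97 in CD8abT to 2.75 in CD8aaT cells with every T cell group overlapping the next, and stood at 0.40 in both B cell groups.

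Other genes of receptor signalling were read from lists. For all list genes ± is the SE of the fit without the block, also beside calls made with the block. Of 28 genes of proximal signalling 21 had a probe set of 1 symbol, and in NKT cells 1 rose, the adaptor Dok2, which dampens receptor signals (1.01 ± 0.16, adjusted p = 0.0024). With the block the Tec-family kinase Txk (1.18 ± 0.30), the phosphatase Ptpn22 (1.17 ± 0.41) and the adaptor Skap2 (0.50 ± 0.33) were also called higher and the GTPase Rhoh lower (-0.62 ± 0.16). Their adjusted p-values with the block were 0.0011, 0.0043, 0.045 and 0.015. In CD8aaT cells none of the 21 passed (2 with an unadjusted limma p under 0.05). With the block Skap2 (0.94 ± 0.33, adjusted p = 0.0044) and Ptprc, which encodes CD45 (0.61 ± 0.37, adjusted p = 0.028), were called higher. The adaptor Sit1 was called lower with it (-1.02 ± 0.26, adjusted p = 7.0e-04). The list medians were 0.05 in NKT and -0.03 in CD8aaT cells, beside -0.03 and -0.05 over all probe sets. Of 13 symbols of the receptor complex 3 had such a probe set, Cd3d, Cd3g and Ptcra, and none passed in either pair, with or without the block.

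Among 18 of 21 adhesion and lineage partners measured, none passed in NKT cells (4 with an unadjusted limma p under 0.05), and with the block Ly6e (0.87 ± 0.31) and the tetraspanin Cd37 (0.59 ± 0.29) were called higher and Cd5 lower (-0.95 ± 0.37). In CD8aaT cells Cd244a, another CD48 receptor beside Cd2 in the mouse, rose (2.30 ± 0.18, adjusted p = 2.3e-05), and with the block Cd5 was called lower (-0.92 ± 0.37). Cd5 encodes an inhibitory receptor. Cd5 and its relative Cd6 had negative values in both T cell pairs, where 56.9% (NKT) and 60.8% (CD8aaT) of all probe sets lay below 0. In NKT cells Cd6 passed neither with nor without the block.

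Among regulators of the coreceptors and the T cell lineage, 12 of 17 were measured. In NKT cells Lef1, a transcription factor of T cell development, fell (-0.62 ± 0.13, adjusted p = 0.029), and with the block Gata3 (0.86 ± 0.31) was called higher and Myb lower (-1.84 ± 0.50). In CD8aaT cells none passed (3 with an unadjusted limma p under 0.05), and with the block Gata3 (0.74 ± 0.31) and Ets1 (1.08 ± 0.36) were called higher and the chromatin organiser Satb1 (-0.89 ± 0.45) and Notch1 (-0.71 ± 0.17) lower. The median of these 12 was -0.06 in NKT cells and -0.08 in CD8aaT cells, near the median of all probe sets. The plot of lists shows the members beside these genes.

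**Figure D4:**
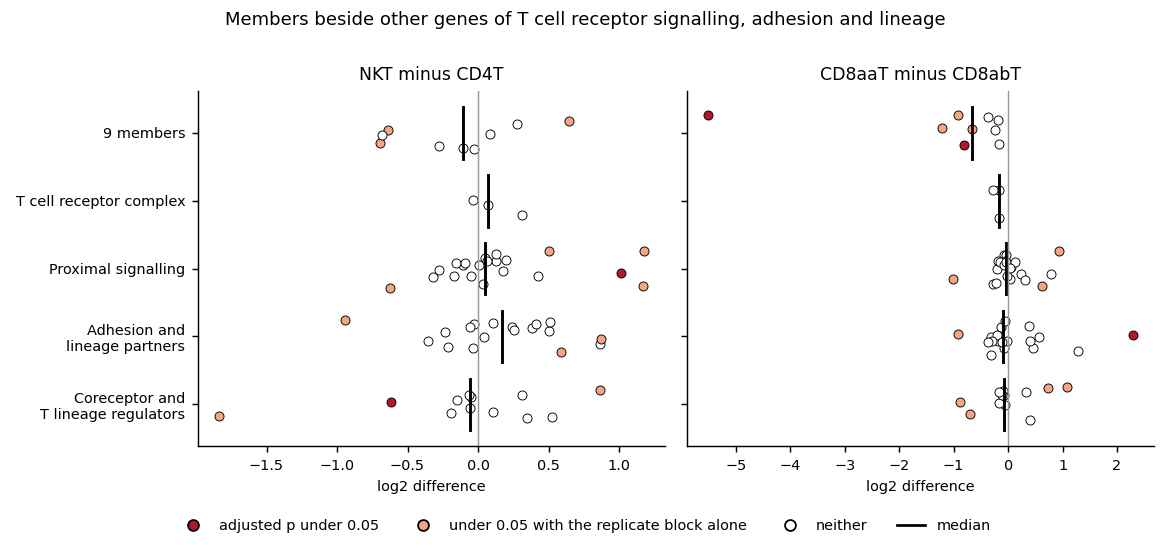
Log2 difference (horizontal axes) of the 9 genes and of the measured genes of 4 lists at their brightest probe set, in NKT minus CD4T and CD8aaT minus CD8abT; vertical scatter within a row is only for legibility. The vertical bar is the median, -0.10 and -0.66 for the 9 genes, and colours mark the calls.

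Genes most like each member were sought by the Euclidean distance between their 3 pair differences, over 8250 other genes. Cd8b1 had no close counterpart, with Socs3 nearest at 4.03, followed by Drc1 at 4.19 and Sit1 at 4.54. These distances come mainly from its difference of -5.51 in CD8aaT cells, whose direction the gate on CD8b fixed. For Cd2, lower in CD8aaT and higher in B1 cells, the nearest were Lsp1 (0.88), which encodes a leukocyte actin-binding protein, Aldh2 (0.94) and Ppp1r14b (0.97). The other members compared, which exclude Cd3e, had neighbours at 0.03 to 0.26: Grk6, Ankrd28 and Dntt for Cd247, Wnt10a, Ddit3 and Rnaseh2c for Zap70, and Cnga1, F2rl3 and Lef1 for Cd4. Those of Cd8a were Tmsb10, Xrcc1 and Polr2j, those of Cd6 H2aj, Tcf19 and Setd4, and those of Thy1 Ramp1, Adgrg3 and Tmsb10. Tmsb10, a small actin-binding protein gene, was on 2 of these lists, with -0.84 in CD8aaT, 0.07 in NKT and -0.20 in B1 cells. With 3 differences per gene such likeness is a description only.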

How the data were processed

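RNA of sorted cells was amplified, labelled and hybridised to 16 1-colour Affymetrix mouse arrays, per the labels' protocols. The deposited values are intensities on a linear scale, made by the authors with RMA per the submitters' processing notes; the version is not given in the sources used here. Here log2 was taken, 66 control probe sets were left out and 12422 were fitted with limma 3.58.1 in R 4.3.3 (6 group means, empirical Bayes, Benjamini-Hochberg over 12422). Gene names came from the platform annotation, and a gene's main probe set is its brightest over the 12 T cell arrays. All members were named, with genes of the lists called in a T cell pair and, for each called member, its 3 nearest genes. Members and lists were chosen with earlier results of these data known. The labels call replicates biological without naming animals, so the p-values cover sample-to-sample variation that may be technical.

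Replicate numbers were taken to pair the T cell samples because deviations of same-numbered arrays correlated at 0.76, 0.65 and 0.67 (NKT with CD4T) and 0.64, 0.60 and 0.66 (CD8aaT with CD8abT). This rests on the data and not on a label, and NKT replicate 3 also correlated at 0.67 with CD4T replicate 2 and NKT replicate 2 at 0.57 with CD4T replicate 3. Tested on simulated data, 72% of 100 probe sets changed by 1 on the log2 scale were recovered for NKT against CD4T, 76% for CD8aaT against CD8abT and 50% for B1 against B2. In these runs 11, 14 and 5 unchanged probe sets were called. The simulated noise was independent between arrays, unlike that of the same-numbered arrays above, so these rates may not hold for the real arrays. Alternatives were the block, scaling, offset, dim filter, trend, array weights, groups alone and left-out arrays, and a beta-actin covariate added after seeing the data.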

Additional observations from a re-analysis of the deposited data

Results flagged for a closer look

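Cd8b1 was the 1 value among the 9 genes whose difference departed between the T cell pairs by a direct test. NKT minus CD4T exceeded CD8aaT minus CD8abT by 4.823 on the log2 scale (limma, adjusted p = 1.6e-04), with -0.68 in NKT against CD4T cells and -5.51 in CD8aaT against CD8abT cells. The CD8aaT and CD8abT gates were set on CD8b, so this is a reading of the sort. Groups of 2 or 3 arrays were too small for a test of single arrays that stand apart.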

How the results depend on the processing

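Cd8b1 was called lower in CD8aaT cells in all 26 alternatives, and Cd8a in 14 of them. Without CD8abT replicate 1, 4 of 13 probe sets passed in CD8aaT cells, and leaving out each array in turn gave 1 to 4, with 1 without CD4T replicate 2, NKT replicate 2 or 3, any CD8aaT array or CD8abT replicate 2. In NKT cells the range was 0 to 1 (Cd4 passed without CD4T replicate 1), in B1 cells 0 to 1 (Cd2, without B2 replicate 1 or CD8abT replicate 1), between the T cell pairs 1 to 2 and between T and B cells 9 to 11. The replicate block gave 4 calls in NKT, 6 in CD8aaT, 5 between the pairs and 1 in B1 cells (Cd2, adjusted p = 0.0048, where the numbers were not taken as pairs). Array weights, whose estimation stopped short of its tolerance, gave 7, 6, 8 and 1. Without the number 1 arrays of all groups the counts were 3, 5, 3 and 1, with single B1 and B2 arrays assumed to vary like the other groups. The beta-actin covariate gave 1 in NKT cells, 2 between the pairs and 1 in B1 cells, quantile normalization 1 in NKT and 1 in CD8aaT cells, and centring 1 in CD8aaT and 1 in B1 cells. The groups alone and an intensity trend each left 1 in CD8aaT cells, and an offset of 32 gave 2 between the pairs. Directions turned for Cd247 102288_at in NKT cells with array weights (-0.20), and between T and B cells for Cd4 (-0.70) and Zap70 93663_r_at (-0.85) without centring, the last also with the offset (-0.21). Values that passed in neither setting also changed sign, 9 times in NKT, 15 in CD8aaT, 13 in B1 cells, 13 between the pairs and 5 between T and B cells. Over all probe sets the 202 calls in NKT cells became 601 with the block, 4034 with array weights and 356 without number 1 arrays. The 23 in CD8aaT cells became 398, 278 and 190, 2 with the groups alone, 9 with the offset and 11 with the covariate, and 10 to 57 without single arrays. The 142 in B1 cells became 353, 271 and 227, 50 alone and 214 with the offset, and 64 to 164 without single arrays. The 86 between the pairs became 375, 1121 and 363, 53 alone, and 45 to 166. The 3450 between T and B cells (1982 higher) became 5728 with the block, 5646 with array weights, 6907 with the offset and 11206 (262 higher) without centring. The causes were not tested. The T and B cell contrast had no separate fit on its groups alone.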
